A study of Mus musculus with 66 samples.

Results

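The 43 genes described here encode the DNA replication machinery of the mouse and the enzymes that feed and follow it. They were taken as a list of gene symbols out of the 39179 genes in the count tables. No measured value served as a cut, but earlier results of these data were known when the list was made. All 43 were found. The list holds 6 subunits of the MCM helicase, 6 factors that complete or activate that helicase (Mcm10, Cdc45 and the 4 GINS subunits), 6 subunits of the origin recognition complex, the licensing factors Cdc6 and Cdt1, 6 polymerase and primase subunits, the sliding clamp Pcna with 5 subunits of its loader, 3 subunits of the single-strand binding protein RPA, Fen1 and Lig1, 4 enzymes of nucleotide supply, and the maintenance methylation pair Uhrf1 and Dnmt1.

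RNA sequencing was done on 4 kinds of RNA sample, with 3 libraries for each kit and input. The samples were the mouse bladder cancer cell line BC57, grown in culture, and the normal urothelium of 9 mice, each either formalin-fixed and paraffin-embedded (FFPE, with 24 h in buffered formalin) or fresh frozen (FF). No strain, age, genotype or treatment of the mice was given in the labels, nor how the 9 mice were combined, and BC57 is a single line harvested as a single pellet. Ovation SoLo libraries were made with 50 pg, 250 pg and 2 ng of total RNA of all 4 samples, SMARTer Pico libraries with 250 pg and 2 ng of all 4 samples, and poly(A) libraries with 1 µg of the FF samples, so that 66 libraries formed 22 groups of 3. Both kits work on total RNA depleted of ribosomal sequences, whereas the poly(A) libraries hold polyadenylated RNA. The labels number the 3 libraries of a group without saying whether they came from separate mice, cultures or RNA aliquots, so the p-values below measure only the spread between these libraries, which may be technical.

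DNA replication starts at origins that are bound by the origin recognition complex, which with Cdc6 and Cdt1 loads the MCM helicase on DNA before S phase. Cdc45 and GINS then join MCM to form the active helicase, after which the primase and the polymerases copy the strands with the Pcna clamp as their tether. Most genes of this machinery are E2F targets that are transcribed as cells pass into S phase, while several origin recognition subunits are kept at a steadier level through the cell cycle. Normal adult urothelium is known as an epithelium that renews very slowly, and a cultured cancer line divides continuously. In bulk RNA, fewer cells in S phase and less RNA per such cell cannot be told apart.

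Total counts ran between 928722 and 4706030 in the 36 Ovation libraries, between 651879 and 7152648 in the 24 SMARTer libraries and between 18499591 and 36187226 in the 6 poly(A) libraries. In the poly(A) libraries, 12 urothelial marker genes summed to between 429 and 435 CPM (counts scaled to library size) in BC57 and between 10318 and 11315 CPM in urothelium. The urothelium libraries also held 9322 to 10099 CPM of 8 fibroblast markers, 286 to 307 CPM of 8 leukocyte markers and 195 to 210.3 CPM of 5 smooth muscle markers, against 6.69 to 8.73, 28.1 to 28.3 and 9.81 to 11.8 CPM in BC57, so the normal sample was not urothelium alone. The 6 markers of proliferating cells outside the 43 genes summed to between 1930.3 and 1986 CPM in BC57 and between 31.2 and 32.3 CPM in urothelium. The part of these other cells in the results below was not tested. The third SMARTer FFPE urothelium library stood apart at both inputs. It had 780106 counts at 2 ng and 651879 at 250 pg, and its urothelial markers summed to 1190 and 1207 CPM, against 4285 to 4804 CPM in the other 4. Its proliferation markers summed to 263 and 296 CPM, against 20.3 to 67.8 CPM in the others. The third BC57 SMARTer FFPE libraries differed from the other BC57 ones as well, though less. Their fibroblast markers summed to 67.3 CPM at 2 ng and 48.5 CPM at 250 pg, against 9.63 to 17.95 CPM in the other 4, and their leukocyte markers to 55.7 and 70.8 CPM, against 7.60 to 23.04 CPM. The 43 genes summed to 3426 CPM in the third library at 2 ng, against 4132 and 4118 CPM in the other 2, and to 3214 CPM at 250 pg, against 3672 and 3795 CPM. Most counts of calls, medians and ranges of the 43 genes that include SMARTer FFPE are given with and without the libraries numbered 3 of both samples. Those of other genes are given with all libraries only.

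Promoters of the replication genes are shown first, because most of the genes moved in the same direction and E2F sites are known in promoters of this pathway. RefSeq promoters on GRCm38.p6, each running from 250 bases before to 50 bases after an annotated start, were found for 36 of the 43 genes. A gene could have several promoters, and the 36 genes had 46. Only 1 promoter of each gene is shown. Shown are the 3 genes with the motif and the 1 gene without it that had the highest CPM in the BC57 poly(A) libraries. Below, the capitals mark matches on either strand to the E2F-type motif TTTNNCGC, and overlapping matches form 1 run. Dnmt1 (chr9:20952574-20952873, minus strand) had 3 matches, of which 2 overlapped. Its window lies inside the annotated gene (chr9:20907209-20959888), so the start used is not the outermost one. Mcm5 (chr8:75109259-75109558, plus strand) had 2 overlapping matches, and Mcm7 (chr5:138171834-138172133, minus strand) had 2 that were apart. The Mcm7 window lies inside its gene as well (chr5:138164583-138172422). Rrm1 (chr7:102441445-102441744, plus strand) had none in this window.
Dnmt1: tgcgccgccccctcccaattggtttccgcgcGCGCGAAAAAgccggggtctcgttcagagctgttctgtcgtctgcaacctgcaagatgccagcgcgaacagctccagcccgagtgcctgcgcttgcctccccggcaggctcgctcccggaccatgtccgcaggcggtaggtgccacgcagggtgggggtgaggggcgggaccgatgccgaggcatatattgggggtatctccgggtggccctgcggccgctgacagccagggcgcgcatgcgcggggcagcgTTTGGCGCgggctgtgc
Mcm5: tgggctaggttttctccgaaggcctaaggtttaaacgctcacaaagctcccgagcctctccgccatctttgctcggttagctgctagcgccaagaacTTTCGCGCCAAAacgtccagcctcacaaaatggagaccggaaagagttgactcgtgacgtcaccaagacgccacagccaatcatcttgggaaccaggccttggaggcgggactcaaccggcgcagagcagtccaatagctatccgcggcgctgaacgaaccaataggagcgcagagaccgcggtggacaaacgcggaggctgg
Mcm7: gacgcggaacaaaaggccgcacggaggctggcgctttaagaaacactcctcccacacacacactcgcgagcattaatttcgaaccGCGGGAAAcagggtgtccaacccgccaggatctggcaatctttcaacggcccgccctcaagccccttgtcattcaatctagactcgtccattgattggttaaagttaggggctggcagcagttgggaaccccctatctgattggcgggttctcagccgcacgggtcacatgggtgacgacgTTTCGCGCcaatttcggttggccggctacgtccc
Rrm1: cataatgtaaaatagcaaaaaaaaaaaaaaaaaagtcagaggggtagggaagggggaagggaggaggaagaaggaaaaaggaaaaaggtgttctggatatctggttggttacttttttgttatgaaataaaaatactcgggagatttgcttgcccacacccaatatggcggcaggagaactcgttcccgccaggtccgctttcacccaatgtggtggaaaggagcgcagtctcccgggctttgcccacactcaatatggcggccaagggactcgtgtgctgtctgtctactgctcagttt

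The motif was present in at least 1 promoter of 16 of the 36 genes (44.4%), against 5.93% of 27025 genes with a RefSeq promoter of the same length. The NF-Y motif CCAAT, also searched on both strands, was present in 24 of the 36 (66.7%) and in 41.1% of all genes. The CHR motif TTTGAA was present in 5 of the 36 (13.9%) and in 20.2% of all genes. These matches are a description of the letters in this window and do not locate a bound factor. Of E2F-type sites only the form TTTNNCGC was searched, so genes without it, such as Rrm1, may hold other forms. In the poly(A) comparison described next, the median log2 fold change was 3.12 for the 16 genes with TTTNNCGC and 2.95 for the 20 without. It was 3.35 for the 24 genes with CCAAT and 2.57 for the 12 without, and 3.93 for the 5 genes with TTTGAA and 2.94 for the 31 without. Gins3 and Orc3, which did not rise in BC57, were among the 16 with the motif.

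The poly(A) libraries, which were the deepest, gave the reference for the comparison of BC57 with urothelium. In BC57, 40 of the 43 replication genes were higher and 2 were lower at an adjusted p under 0.05 in edgeR's quasi-likelihood test with Benjamini-Hochberg adjustment over all genes tested. In the background of 17934 genes, 42.8% were called higher, 48.5% lower and 91.3% in either direction, so a call in itself says little here and the sizes carry the comparison. The median log2 fold change of the 43 genes was 2.94, beside -0.12 for all genes tested. All 43 passed the filter on low counts. Summed over the genes, the level was 6034 ± 32.8 CPM in BC57 and 858 ± 7.89 CPM in urothelium (SD, n = 3 each). The values of the 40 higher genes did not overlap between the groups, nor did those of 42.7% of all genes tested, which were higher in every BC57 library.

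**Figure D1:**
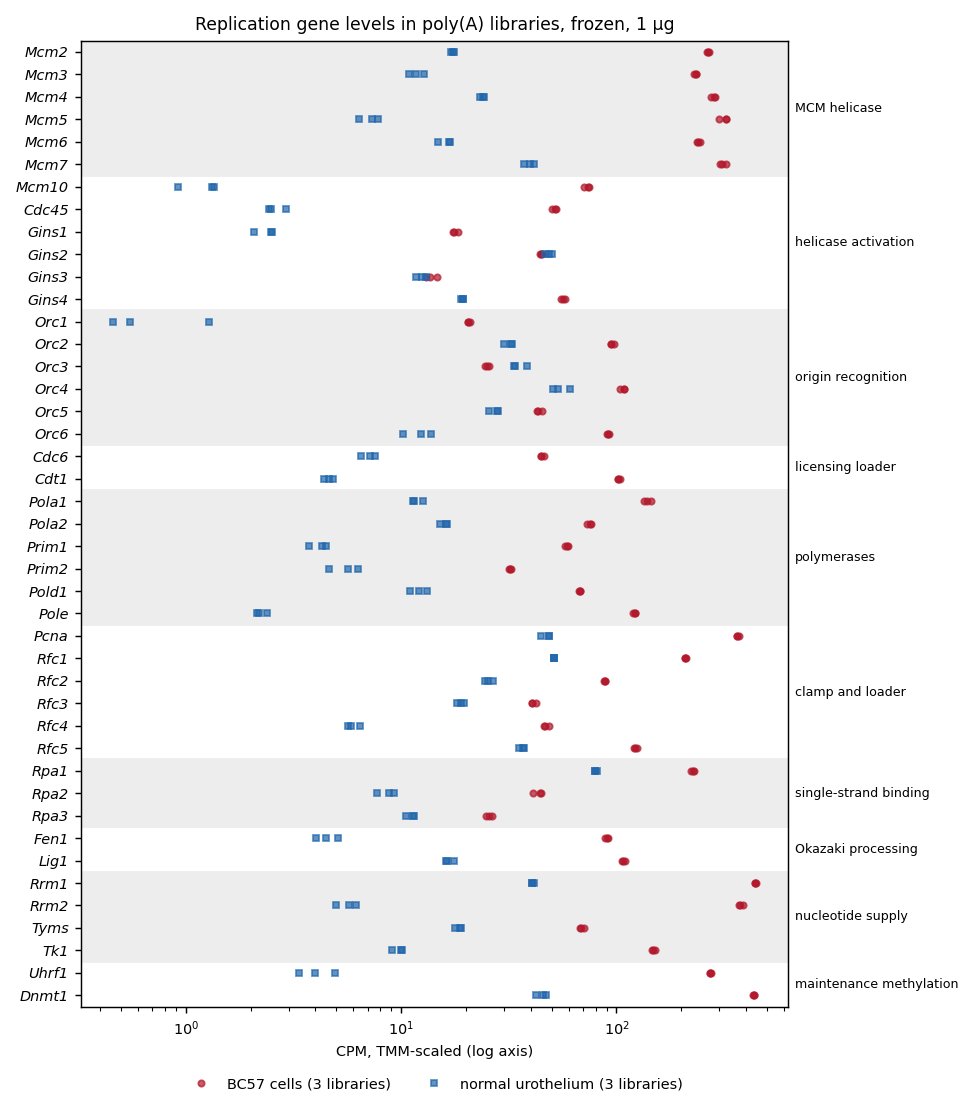
Level of each of the 43 replication genes in the poly(A) libraries, in CPM on a log axis, with 3 BC57 libraries and 3 urothelium libraries per gene and the genes ordered by role. The 2 groups lie far apart for most genes, such as Rrm2 at 378 CPM in BC57 and 5.63 CPM in urothelium, and close together for Gins2 and Gins3.

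The 6 MCM subunits, which form the ring that unwinds DNA, were all higher in BC57, with a median log2 fold change of 3.90. Mcm5 stood at 323, 298.5 and 322 CPM in the BC57 libraries and at 6.38, 7.35 and 7.77 CPM in the urothelium libraries. Its log2 fold change was 5.44 (SE 0.06, adjusted p = 5.72e-25), the largest of the 6. Mcm7 averaged 311 ± 9.97 CPM in BC57 and 39.5 ± 2.13 CPM in urothelium and had the smallest, at 2.98 (SE 0.05). Mcm2, Mcm3, Mcm4 and Mcm6 lay between them, at 3.93, 4.29, 3.57 and 3.88. The subunits sit in the ring in equal numbers, yet their transcripts differed from one another more in urothelium than in BC57. Per kb of exon, they ranged between 38.1 (Mcm2) and 78.7 CPM per kb (Mcm5) in BC57 and between 1.79 (Mcm5) and 8.93 CPM per kb (Mcm7) in urothelium. In CPM, they ranged between 232.7 (Mcm3) and 314 (Mcm5) in BC57 and between 7.17 (Mcm5) and 39.5 (Mcm7) in urothelium.

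The helicase activators split. Mcm10, which helps to switch the helicase on, had 73.6, 70.8 and 74.3 CPM in BC57 and 1.33, 0.923 and 1.35 CPM in urothelium, a log2 fold change of 5.92 (SE 0.09). Cdc45, which binds MCM as part of the moving helicase, was higher by 4.31 on the log2 scale (SE 0.08). The 4 GINS subunits form 1 complex with Cdc45 and MCM, but their transcripts went different ways. Gins1 (log2 fold change 2.93, SE 0.10) and Gins4 (1.55, SE 0.05) were higher in BC57. Gins3 had 14.7, 12.99 and 13.7 CPM in BC57 and 12.5, 11.7 and 13.1 CPM in urothelium, so that the groups overlapped and the difference of 0.15 (SE 0.07) missed the threshold (adjusted p = 0.0564 by edgeR's quasi-likelihood test). With median-ratio size factors Gins3 passed it (adjusted p = 0.0334).

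Gins2 was the exception among the activators. It had 44.7, 44.1 and 45.2 CPM in BC57 and 46.6, 48.9 and 50.02 CPM in urothelium. All 3 BC57 libraries lay below the 3 urothelium libraries, with a log2 fold change of -0.12 (SE 0.05, adjusted p = 0.0185 in edgeR's quasi-likelihood test). That call was lost in DESeq2 (adjusted p = 0.0863) and when any one of 5 libraries was left out (BC57 1, 2 or 3, or urothelium 2 or 3). Gins2 lies at chr8:120578633-120589304 on the minus strand (mm10), and 67.3% of its exonic bases also belong to exons of Gse1, on the other strand. Gse1 itself had 31.7 CPM in BC57 and 100.1 CPM in urothelium, and the part of its reads in the Gins2 counts was not tested.

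The origin recognition complex, which marks origins through the cell cycle, was the role with the smallest differences apart from single genes, with a median log2 fold change of 1.27. Orc1, the subunit known to rise and fall in the cell cycle, had 20.4, 20.5 and 20.8 CPM in BC57 and 1.28, 0.462 and 0.551 CPM in urothelium. Its log2 fold change was 4.86 (SE 0.15), and that of Orc6, a small subunit that helps to load MCM, was 2.94 (SE 0.07). Orc2, Orc4 and Orc5, subunits of the core complex, were higher by 1.59, 0.96 and 0.69. Orc3, another core subunit at chr4:34570796-34614944 on the minus strand (mm10), fell in BC57. It had 24.5, 25.5 and 25.04 CPM in BC57 and 38.4, 33.5 and 33.6 CPM in urothelium, with no overlap and a log2 fold change of -0.49 (SE 0.06, adjusted p = 1.07e-07). The licensing factors Cdt1 and Cdc6, which load MCM at these origins, were both higher in BC57. Cdt1 averaged 103 ± 0.990 CPM in BC57 and 4.61 ± 0.221 CPM in urothelium (log2 fold change 4.46, SE 0.06), and Cdc6 averaged 45.1 ± 0.717 and 7.09 ± 0.509 CPM (2.69, SE 0.06).

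All 6 polymerase and primase genes were higher in BC57. Pole, the catalytic subunit of the leading-strand polymerase, had 121, 121.5 and 119 CPM in BC57 and 2.14, 2.19 and 2.39 CPM in urothelium, a log2 fold change of 5.73 (SE 0.07). Pold1, the catalytic subunit of the lagging-strand polymerase, differed far less, by 2.46 (SE 0.06). Pola1 and Prim1, the catalytic subunits of polymerase alpha and primase, were higher by 3.57 and 3.801. Their partners Pola2 and Prim2 were higher by 2.23 and 2.50. In both pairs the catalytic subunit thus had the larger fold change.

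The clamp Pcna averaged 366 ± 5.03 CPM in BC57 and 47.3 ± 2.16 CPM in urothelium, a log2 fold change of 2.95 (SE 0.04). Per kb of exon it was the highest of the 43 genes in both samples, at 152.5 CPM per kb in BC57 and 19.7 CPM per kb in urothelium. The 5 subunits of the clamp loader were higher as well. Rfc4 was higher by 2.98 (SE 0.07), while Rfc1, Rfc2, Rfc5 and Rfc3 were higher by 2.03, 1.79, 1.75 and 1.12. RPA, which covers the single strands, is also used in repair. Its subunits Rpa2, Rpa1 and Rpa3 were higher by 2.34, 1.49 and 1.20, all below the median of the 43 genes.

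Fen1 and Lig1, which trim and seal the lagging-strand fragments, were higher in BC57 by 4.34 (SE 0.07) and 2.68 (SE 0.05). Fen1 averaged 90.3 ± 1.62 CPM in BC57 and 4.54 ± 0.538 CPM in urothelium. It lies at chr19:10199132-10204169 on the minus strand (mm10), and 78.8% of its exonic bases also belong to the antisense gene Gm10143. That gene had nearly the same summed count over the 3 poly(A) libraries, 7547 against 7842 for Fen1 in BC57 and 346 against 348 in urothelium, so reads of the pair were not told apart and the Fen1 level is uncertain. In all, 16 of the 43 genes shared exonic bases with another gene, and 7 shared over 10% of them (Fen1, Gins2, Orc1, Orc2, Rfc2, Rfc4 and Rfc5).

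Nucleotide supply held the largest difference of the list. Rrm2, the subunit of ribonucleotide reductase that limits its activity in S phase, had 371, 387 and 376 CPM in BC57 and 6.18, 4.96 and 5.75 CPM in urothelium. Its log2 fold change was 6.07 (SE 0.06, adjusted p = 8.33e-26). Its partner Rrm1, the large subunit of the same enzyme, had 442, 444 and 439.8 CPM in BC57 and 41.5, 40.6 and 40.4 CPM in urothelium, with 3.44 (SE 0.04). Per kb of exon, Rrm2 stood at 136 and Rrm1 at 40.1 CPM per kb in BC57. In urothelium they stood at 2.03 and 3.71 CPM per kb. The length is that of all annotated exons merged, 11012 bases for Rrm1 and 2771 for Rrm2. In CPM, Rrm1 was the higher of the 2 in both samples, so their order in BC57 depends on the length used. The thymidine salvage enzyme Tk1 was higher by 3.93 (SE 0.05), and Tyms, which makes thymidylate anew, by 1.90 (SE 0.05).

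Uhrf1 and Dnmt1 restore DNA methylation behind the fork, Uhrf1 by reading half-methylated DNA and Dnmt1 by methylating it. Uhrf1 had 275.5, 273 and 272 CPM in BC57 and 3.37, 3.96 and 4.96 CPM in urothelium, a log2 fold change of 6.02 (SE 0.07). Dnmt1 averaged 433 ± 3.20 CPM in BC57 and 45.01 ± 2.42 CPM in urothelium, with 3.26 (SE 0.04). Across the list, urothelium kept a wider order of levels than BC57. Per kb of exon, the lowest and highest of the 43 genes lay 37.1-fold apart in BC57 (Orc3 at 4.11 and Pcna at 152.5 CPM per kb) and 126-fold apart in urothelium (Mcm10 at 0.156 and Pcna at 19.7 CPM per kb).

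Other genes of the pathway were described from a second list. Of 45 other replication genes, such as histone chaperones, checkpoint mediators and further polymerase subunits, 41 were higher and 3 lower in BC57 in the poly(A) libraries, with a median log2 fold change of 2.80, where 42.8% of all genes were called higher, 48.5% lower and the median was -0.12. Asf1b, a histone chaperone, was higher by 6.19, and Dtl, which marks Cdt1 for degradation, by 5.97. Ticrr, which is needed to activate origins, was higher by 5.81, and Clspn, a mediator of the replication checkpoint, by 5.43. The 3 lower genes were Mcm9 (-0.93), a helicase used in repair, Rrm2b (-0.54), the p53-induced form of the small reductase subunit, and Top1 (-0.34), which relaxes supercoils. Of the 8 E2f genes, 7 were higher and none lower, with a median over the 8 of 2.54, beside the same 42.8% of all genes.

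The same comparison was then made with the low-input kits and on fixed RNA. In frozen RNA at 2 ng the replication genes gave nearly the poly(A) picture. With Ovation, 40 were higher and 2 lower in BC57, where 37.6% of 13018 genes were called higher, 41.4% lower and 79.1% in either direction, and the median of the 43 log2 fold changes was 2.78. With SMARTer, 40 were higher and 1 lower, where 36.3% of 14503 genes were called higher, 41.2% lower and 77.5% in either direction, and the median was 2.80. Rrm2 had 380.1, 353 and 398 CPM in BC57 and 6.67, 6.33 and 5.41 CPM in urothelium with Ovation, and 191, 188 and 166 CPM in BC57 and 2.03, 2.80 and 3.88 CPM in urothelium with SMARTer. Its log2 fold changes of 5.94 and 5.99 lay close to the 6.07 of the poly(A) libraries. The levels themselves were scaled within each pair of groups and are not set against each other between kits here. The log2 fold change lay within 0.5 of the poly(A) value for 36 of the 43 genes with Ovation and for 37 with SMARTer, while the median SE was 0.18 and 0.16, against 0.05 in the poly(A) libraries.

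**Figure D2:**
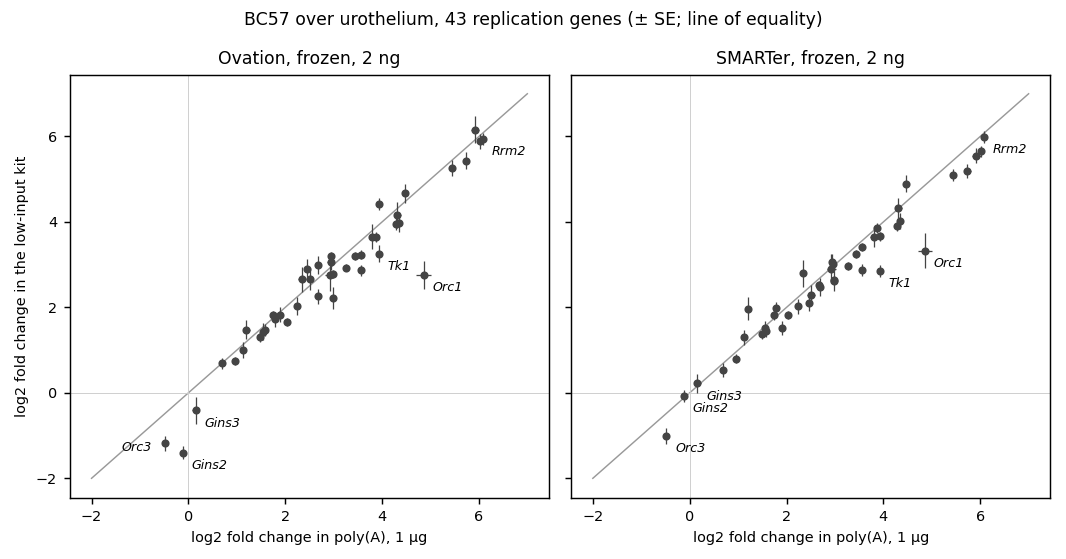
Log2 fold change of BC57 over urothelium for each of the 43 genes in a kit at 2 ng of frozen RNA (vertical axis) against that in the poly(A) libraries (horizontal axis), for Ovation and for SMARTer, with bars of 1 SE and the line of equality. Most points lie along the line, Rrm2 at its top end, while Orc1 lies below it in both panels, at 2.76 with Ovation and 3.32 with SMARTer beside 4.86 with poly(A).

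**Figure D3:**
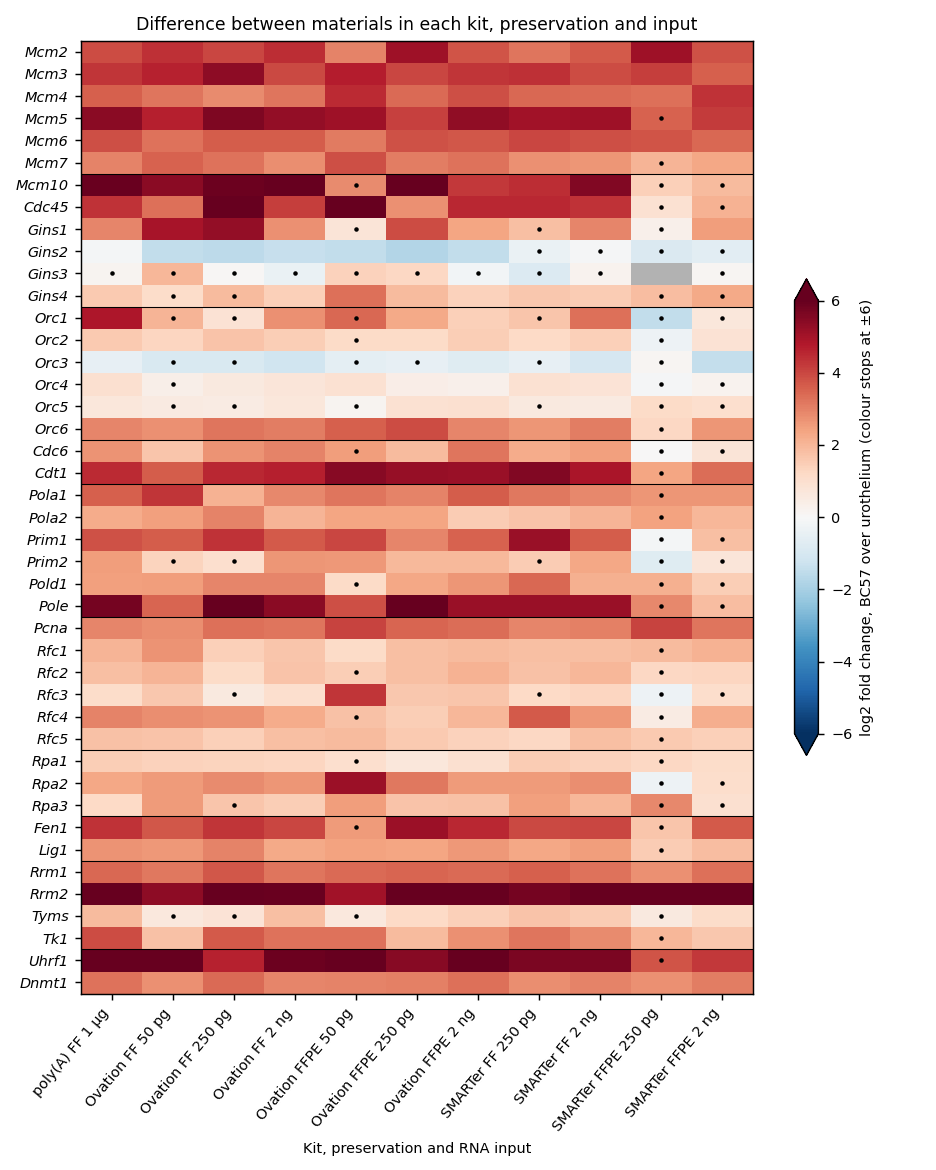
Log2 fold change of BC57 over urothelium for each of the 43 genes (rows, by role) in the 11 conditions (columns), on a colour scale that stops at 6 in either direction. A black dot marks an adjusted p that is not under 0.05 and grey a gene that was not tested. The rows of Mcm2, Mcm3, Mcm4, Mcm6, Pcna, Rrm1, Rrm2 and Dnmt1 hold no dot. Dots are most frequent with SMARTer FFPE at 250 pg (34) and 2 ng (16) and with Ovation FFPE at 50 pg (14).

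In frozen RNA at 2 ng, Orc1 was the gene whose fold change lay farthest from the poly(A) value with each kit. In the urothelium it stood at 3.33, 3.69 and 1.80 CPM with Ovation at 2 ng, beside 20.9, 18.8 and 19.8 CPM in BC57, and its log2 fold change there was 2.76 (SE 0.32), which is 2.10 below the poly(A) value. With SMARTer it had 12.1, 10.8 and 10.9 CPM in BC57 and 0.677, 0.494 and 2.37 CPM in urothelium (3.32, SE 0.41). Over the 11 conditions its fold change ranged between -1.45 and 4.86, and it was called higher in 5. Without the SMARTer FFPE libraries numbered 3 it ranged between 0.89 and 4.86 and was called higher in 6.

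The genes that did not rise in BC57 with poly(A) were not called higher with either kit. Gins2 had 26.4, 24.3 and 21.6 CPM in BC57 and 70.6, 60.7 and 60.4 CPM in urothelium with Ovation at 2 ng, a fall of -1.40 (SE 0.15, adjusted p = 1.05e-10) that was far larger than with poly(A). With SMARTer at 2 ng its values overlapped, at 28.6, 31.4 and 32.2 CPM in BC57 and 30.8, 38.3 and 27.99 CPM in urothelium (-0.08, SE 0.14, adjusted p = 0.623 by edgeR). Gse1, which shares its exons, had 28.6 CPM in BC57 and 125.5 CPM in urothelium in the Ovation libraries and 28.3 and 111 CPM in the SMARTer libraries. Over the 11 conditions the fold change of Gins2 was negative in 11 and called in 7, between -1.77 and -0.08. Orc3 was negative in 10 of the 11 and called lower in 5, between -1.42 and 0.10, the only positive value being that of SMARTer FFPE at 250 pg. Without the SMARTer FFPE libraries numbered 3, Orc3 was negative in all 11 and called lower in 5, between -1.65 and -0.14, and Gins2 was called lower in 8 with the same range as before. Orc3 had 28.1, 28.8 and 24.2 CPM in BC57 and 42.8, 62.8 and 76.6 CPM in urothelium with Ovation at 2 ng (-1.18, SE 0.17). Gins3 was tested in 10 conditions and called in none of them, with values between -0.84 and 1.99, and without those libraries it was tested in 11 and called in none, with values up to 2.93.

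The genes called higher in BC57 in all 11 conditions were 8, namely Mcm2, Mcm3, Mcm4, Mcm6, Pcna, Rrm1, Rrm2 and Dnmt1. Of the 11179 genes tested in every condition, 3.44% were called higher in all of them. Between conditions the log2 fold changes of these 8 moved by different amounts. Dnmt1 ranged between 2.76 and 3.40, Mcm6 between 3.14 and 3.99, Rrm1 between 2.76 and 3.74, and Pcna between 2.78 and 4.06. Mcm2 ranged between 2.98 and 5.10, Mcm3 between 3.61 and 5.35, Mcm4 between 2.85 and 4.49, and Rrm2 between 5.02 and 6.99. Without the SMARTer FFPE libraries numbered 3, Dnmt1 ranged between 2.76 and 3.66, Rrm1 between 3.17 and 3.84, and Pcna between 2.78 and 4.04. Mcm2 then ranged between 2.98 and 5.31, Mcm3 between 3.90 and 5.35, and Rrm2 between 5.02 and 6.74. Mcm4 and Mcm6 kept their ranges. The count of 8 was set by SMARTer FFPE at 250 pg, where Mcm3 (adjusted p = 0.0548 by edgeR) and Dnmt1 (adjusted p = 0.0565 by edgeR) were lost with median-ratio size factors and up to 7 of the 8 were lost when 1 library was left out. Without the SMARTer FFPE libraries numbered 3, 17 genes were called higher in all 11 conditions. The share of all genes is not given for this count. With all libraries, 11 genes beside the 8 were called higher in 10 of the 11 conditions (Mcm5, Mcm7, Orc6, Cdt1, Pola1, Pola2, Rfc1, Rfc5, Lig1, Tk1 and Uhrf1).

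Lower inputs of frozen RNA left the medians near those at 2 ng, but cost calls and moved single genes. With Ovation the log2 fold change lay within 0.5 of the poly(A) value for 20 genes at 50 pg and 28 at 250 pg, against 36 at 2 ng. With SMARTer it did so for 28 genes at 250 pg, against 37 at 2 ng. With Ovation at 50 pg, 34 genes were higher and 1 lower in BC57 (median 2.68), against a background of 20.2% of genes called higher, 25% lower and 45.2% in either direction. At 250 pg, 33 were higher and 1 lower (median 2.92), against 21.6%, 26.4% and 48%. With SMARTer at 250 pg, 35 were higher and none lower (median 2.66), against 23.9%, 27.5% and 51.4%. Orc1, Orc3, Orc5, Prim2 and Gins3 were not called in any of the 3. The spread between libraries was larger on the urothelium side. The median coefficient of variation of the 43 genes (of those with at least 30 counts over the 3 libraries) was 12.6%, 13.015% and 7.48% in BC57 with Ovation at 50 pg, 250 pg and 2 ng, and 44.4%, 56.2% and 11.7% in urothelium, where counting error alone gave 16.98%, 13.2% and 17.9%.

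In the urothelium at these inputs the level of some genes differed widely between libraries, and some genes had few counts or none. Mcm2 with Ovation at 250 pg had 185, 158 and 191 CPM in BC57 and 18.99, 13.04 and 1.02 CPM in urothelium. Cdc45 there had 35.6, 27.05 and 30.7 CPM in BC57 and no count in any urothelium library, which makes it at least 94.9-fold higher when 3 counts over the urothelium group are taken as its floor. Orc1 had 15.5, 15.3 and 22.5 CPM in BC57 and 5.21, 1.03 and 22.5 CPM in urothelium, a difference of 0.89 (SE 0.88, adjusted p = 0.445 by edgeR). The third urothelium library of this group was the one with most genes missing, with at least 5 counts for 22 of the 43 genes, against 40 and 39 in the other 2. Without it 42 of the 43 genes were called, in place of 34. The share of all genes called without it is not given. Gins1 had 41.98 times the CPM in BC57 at 250 pg (95% counting interval 14.1 to 206) and 34.5 times at 50 pg (9.08 to 293), on at most 3 counts over the urothelium libraries.

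No replication gene was called between inputs of the same frozen sample. In Ovation libraries against 2 ng, edgeR and DESeq2 each called 0 genes at 50 pg in BC57, at 50 pg in urothelium, at 250 pg in BC57 and at 250 pg in urothelium, of 43, 36, 43 and 35 tested. At an unadjusted p under 0.05 edgeR gave 2, 5, 2 and 0. Over all genes it gave 793 of 11259, 706 of 12801, 759 of 11641 and 343 of 12929. Few genes of any kind were called in these comparisons, namely 0.0266%, 0.0%, 0.198% and 0.0%.

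**Figure D4:**
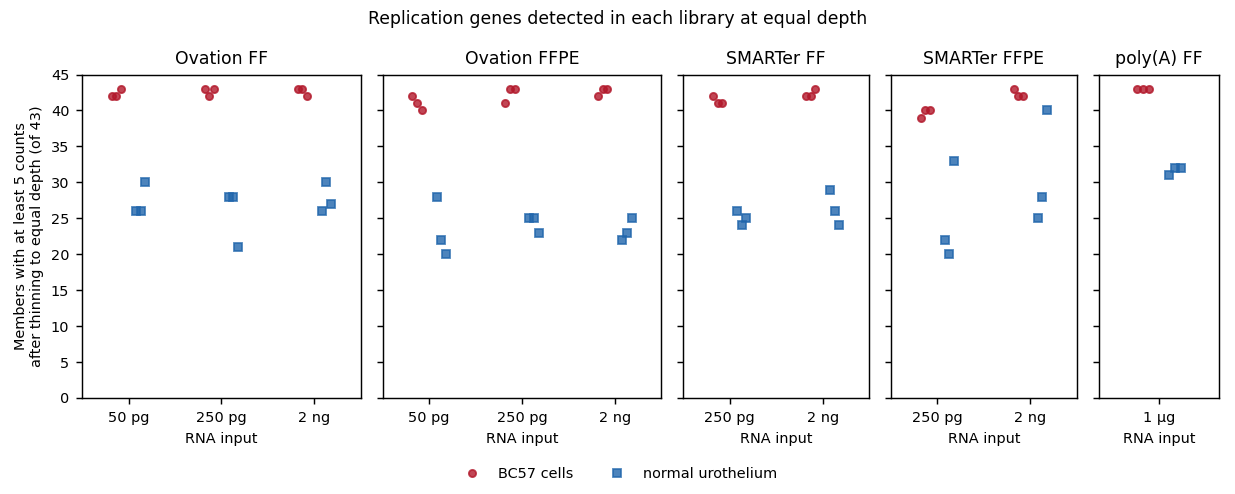
Number of the 43 genes with at least 5 counts in each library, after every library was thinned to 651879 counts, by kit, preservation and input, with BC57 left of urothelium. BC57 libraries held 39 to 43 genes at this depth, and urothelium libraries 20 to 40.

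The number of replication genes seen at equal depth separated the samples more than the inputs did. Over all genes the poly(A) libraries went the other way, with 10356 to 10390 genes at this mark in BC57 and 11547 to 11605 in urothelium. Thinned to 651879 counts, BC57 libraries held 39 to 43 of the genes with at least 5 counts in every kit, preservation and input. The urothelium libraries held 31 to 32 with poly(A), 26 to 30 with Ovation FF at 50 pg and again at 2 ng, and 21 to 28 at 250 pg. With SMARTer FFPE they held 20 to 33 at 250 pg and 25 to 40 at 2 ng, and the highest value at each input came from the third library that stood apart. That library was also high over all genes. It held 15915 genes with at least 5 counts at 250 pg, against 11095 and 10584 in the other 2. At 2 ng it held 20982, against 11453 and 11593.

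Fixed RNA gave the same direction. With Ovation, the median SE of the 43 log2 fold changes was 0.67 in FFPE and 0.45 in FF at 50 pg. It was 0.43 in FFPE and 0.58 in FF at 250 pg, and 0.19 and 0.18 at 2 ng. With Ovation FFPE, 28 genes were higher and 1 lower in BC57 at 50 pg (median 2.98), 40 higher and 1 lower at 250 pg (median 2.35), and 40 higher and 2 lower at 2 ng (median 2.63). The backgrounds at these inputs were 14.7%, 24.0% and 36.7% of genes called higher, 18.8%, 28.2% and 40.3% lower, and 33.5%, 52.2% and 77% in either direction. Uhrf1 at 2 ng had 131, 117.2 and 138 CPM in BC57 and 1.62, 0.375 and 1.59 CPM in urothelium (log2 fold change 6.66, SE 0.23). Mcm10 at 50 pg had 31.2, 40.3 and 51.03 CPM in BC57 and 16.7, 0.247 and 0.296 CPM in urothelium, where 1 library of 3 held nearly all the counts. It was not called by edgeR (adjusted p = 0.0843) and was called by DESeq2 (adjusted p = 0.0335) and by edgeR without that library. Fen1 followed the same course there, with 21.4, 26.8 and 33.6 CPM in BC57 and 12.3, 1.48 and 0.296 CPM in urothelium, and was called by DESeq2 (adjusted p = 0.0460) and not by edgeR (adjusted p = 0.0895). Genes with at most 3 counts over the urothelium libraries at 50 pg gave ratios of 423 for Cdc45 (95% counting interval 75.6 to 16752), 382 for Uhrf1 (130.3 to 1853) and 37.6 for Rpa2 (12.6 to 184).

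With SMARTer FFPE the calls hung on the third library. At 2 ng, 26 genes were higher and 1 lower in BC57 (median 1.92), against 13.7% of genes called higher, 16.3% lower and 30% in either direction, and without the libraries numbered 3 of both samples 41 of the 43 were called (median 2.61). At 250 pg, 8 of 42 tested were higher and none lower (median 1.64), against 3.8%, 5.58% and 9.38%, and 20 without those libraries (median 2.36). At 2 ng the value of Orc1 was 0.69 with all libraries and 2.49 without those numbered 3, that of Mcm10 was 1.92 and 4.15, and that of Pole 1.87 and 6.02. Leaving out the third urothelium library alone gave 38 at 2 ng and 21 at 250 pg. The shares of all genes above come from fits with all libraries and are no background for the counts made with libraries left out. Removing BC57 library 1 or 2 left 15 calls at 2 ng, and removing urothelium library 1 or 2 left 17. At 250 pg, 1 call was left when BC57 library 1, BC57 library 2 or urothelium library 1 was removed, and 4 when BC57 library 3 or urothelium library 2 was. The 8 called at 250 pg were the 8 genes called everywhere. Dnmt1 had 429, 441 and 452 CPM in BC57 and 15.5, 53.6 and 130.04 CPM in urothelium there, while Orc1 had 27.9, 7.10 and 5.25 CPM in BC57 and 0, 10.4 and 103 CPM in urothelium. The highest urothelium value of each was that of the third library, in which the 43 genes summed to 1550 CPM against 658 and 702 CPM in the other 2.

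Fixation itself was compared within each sample at 2 ng. In BC57 with Ovation, 24 of the 43 genes were lower and 1 higher in FFPE than in FF RNA, against a background of 15.6% called lower, 16.6% called higher and 32.3% in either direction. The median log2 fold change was -0.35, beside 0.00 for all genes. All 6 MCM subunits fell, Mcm6 with 161, 164 and 170.3 CPM in FFPE and 257, 251.3 and 289.7 CPM in FF libraries (-0.69, SE 0.07, adjusted p = 4.79e-09). Pcna had 229.9, 225 and 217 CPM in FFPE and 336, 343 and 351 CPM in FF libraries (-0.62, SE 0.07), and Fen1 had 33.6, 46.01 and 33.5 CPM in FFPE and 63.1, 75.2 and 58.7 CPM in FF libraries (-0.81, SE 0.14). None of these overlapped between FFPE and FF. Orc3 was the 1 gene that rose, with 41.4, 47.5 and 43.6 CPM in FFPE and 27.2, 27.9 and 23.4 CPM in FF libraries (0.75, SE 0.15, adjusted p = 0.000137).

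**Figure D5:**
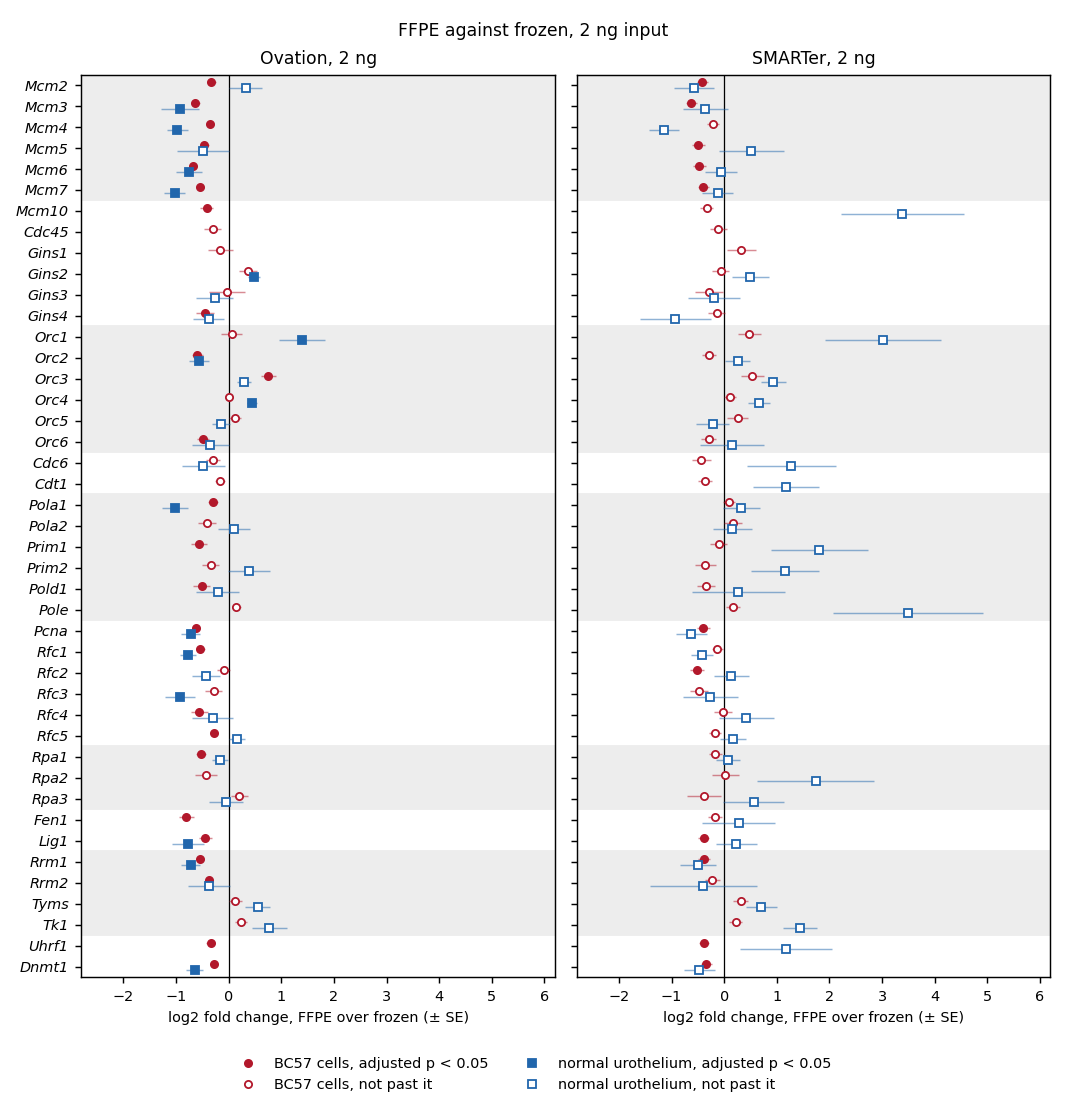
Log2 fold change of FFPE over FF RNA at 2 ng for each gene, with bars of 1 SE, for Ovation and for SMARTer, with BC57 as circles above urothelium as squares. Filled symbols passed an adjusted p of 0.05 and open ones did not. With Ovation, 24 filled BC57 circles lie below 0 and 1, that of Orc3, above it, while with SMARTer the urothelium squares are all open.

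In urothelium with Ovation, 34 of the 43 genes passed the filter, of which 12 were lower and 3 higher in FFPE (median -0.36), against 17.9% called lower, 19.3% higher and 37.3% in either direction. Mcm7 had 15.3, 16.1 and 19.6 CPM in FFPE and 37.4, 33.95 and 33.3 CPM in FF libraries (-1.03, SE 0.19). Pola1 (-1.02), Mcm4 (-0.98), Mcm6 (-0.76), Pcna (-0.72) and Dnmt1 (-0.64) fell too. In DESeq2 the lower calls were 8, with Mcm3, Mcm6 (adjusted p = 0.0603), Orc2 and Lig1 lost, and in edgeR Mcm6 was also lost without FFPE library 1 or 3. Orc1 (1.39), Gins2 (0.48) and Orc4 (0.45) were the 3 that rose. With SMARTer, 11 genes fell in BC57 (Mcm2, Mcm3, Mcm5, Mcm6, Mcm7, Pcna, Rfc2, Lig1, Rrm1, Uhrf1 and Dnmt1) and none rose (median -0.22, or -0.17 without the FFPE library numbered 3), against 8.57% called lower, 9.25% higher and 17.8% in either direction. Mcm3 had 153, 167 and 135 CPM in FFPE and 242, 226 and 238 CPM in FF libraries (-0.63, SE 0.11). The count of 11 fell to 2 without FF library 1 or 2 and to 5 without FF library 3. In urothelium with SMARTer, edgeR called 0 of 41 genes, against 1.87% of all genes (1.32% higher and 0.551% lower). Of the 41, 8 had an unadjusted p under 0.05, DESeq2 called 6, and edgeR called 9 without the third FFPE library (Mcm3, Mcm4, Gins2, Orc3, Orc4, Pold1, Rrm1, Tk1 and Dnmt1). Of all 14512 genes tested, 3536 had an unadjusted p under 0.05 and DESeq2 called 1835, so the 8 and the 6 lie near the shares of all genes. For the 9, no share of all genes is given. Orc3 there had 55.1, 77.5 and 54.1 CPM in FFPE and 38.3, 33.3 and 26.7 CPM in FF libraries (0.94, SE 0.23, adjusted p = 0.0735 by edgeR).

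Of the 45 other replication genes, 13 fell and none rose with fixation in BC57 with Ovation (median -0.17), where 15.6% of all genes were called lower and 16.6% higher. With SMARTer 10 fell and 2 rose in BC57 (median -0.14), where 8.57% of all genes were called lower and 9.25% higher. In urothelium with Ovation 3 of 33 tested fell and none rose, where 17.9% of all genes were called lower, so a fall of the wider list was not seen there. In urothelium with SMARTer none of 37 tested was called by edgeR.

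Whether fixation acted differently on the 2 samples was tested by an interaction term. With Ovation 2 of the 43 genes passed, where 5.9% of all genes did. Mcm4 fell more in urothelium (-0.36 in BC57 and -0.98 in urothelium, difference 0.60, adjusted p = 0.03003 by edgeR), and Orc4 was called higher in urothelium and not in BC57 (0.01 in BC57 and 0.45 in urothelium, difference -0.46, adjusted p = 0.0184 by edgeR). Mcm4 was lost in DESeq2 (0.57, adjusted p = 0.0675) and in 6 of 12 fits that left out 1 library, and Orc4 in 3 of the 12. With SMARTer, edgeR and DESeq2 called 0, 5 genes had an unadjusted p under 0.05, and 0.0% of all genes were called by edgeR. Of all 16574 genes tested, 1423 had an unadjusted p under 0.05. Without the FFPE libraries numbered 3, edgeR called Mcm4 (1.015, adjusted p = 0.00501).

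The kits were also set against poly(A) within each frozen sample. Input differed along with the kit, at 2 ng for the kits and 1 µg for poly(A). With Ovation, 15 genes were higher and 17 lower than with poly(A) in BC57, and 10 higher and 7 lower in urothelium, where 59.9% (30.3% higher and 29.6% lower) and 56.7% (28.1% and 28.6%) of all genes were called. With SMARTer, 14 were higher and 11 lower in BC57 and 11 higher and 5 lower in urothelium (of 42 tested), where 57.5% (29.5% higher and 27.9% lower) and 57.7% (29% and 28.7%) of all genes were called. The replication genes called in the 4 comparisons were thus 32 of 43, 17 of 43, 25 of 43 and 16 of 42, in both directions each time, and their median log2 fold changes were -0.03, -0.14, -0.02 and 0.12. Rpa2 was lower with both kits in both samples, by -0.60 in BC57 and -1.10 in urothelium with Ovation and by -0.72 and -1.30 with SMARTer. Of the 6 origin recognition subunits, 4 were called higher with Ovation in each sample and none lower. Orc3 (0.38 in BC57 and 0.92 in urothelium), Orc4 (0.84 and 0.91) and Orc5 (0.86 and 0.70) were called in both, Orc2 (0.22) in BC57 and Orc1 (2.12) in urothelium, while Orc6 was called in neither. SMARTer gave more of Mcm10 (0.99 in BC57 and 1.22 in urothelium), Lig1 (0.90 and 0.93) and Dnmt1 (0.76 and 0.95). Dnmt1 there had 573, 593 and 573.5 CPM with SMARTer and 344, 339 and 342 CPM with poly(A) in BC57, with no overlap.

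A kit effect that is equal in both samples leaves their ratio as it is, so the interaction was tested. With Ovation 4 of the 43 genes passed, where 8.32% of all genes did, and with SMARTer 3, where 8.44% did. Gins2 was lower with Ovation in BC57 (-0.63) and higher in urothelium (0.49), a difference of -1.03 (adjusted p = 2.42e-06 by edgeR). Orc1 differed by -1.82 (adjusted p = 0.0184 by edgeR; 0.21 in BC57 and 2.12 in urothelium). Tk1 was lower with SMARTer in BC57 (-0.49) and higher in urothelium (0.47), a difference of -0.85 (adjusted p = 0.000357 by edgeR). Mcm2 (0.75) and Pcna (0.51) with Ovation and Rpa3 (1.02) and Rfc2 (0.44) with SMARTer were the others. TMM scaling left the median over all genes at 0.11 with Ovation and 0.15 with SMARTer, with 1155 higher and 277 lower calls and 1263 higher and 211 lower calls. Median-ratio size factors moved the medians to -0.01 and 0.01 and the calls to 423 higher and 440 lower and to 415 higher and 337 lower. Mcm2 and Rfc2 were lost in DESeq2 as well, Orc1 without urothelium Ovation library 1 or 2, and Rfc2 in 8 of 12 fits that left out 1 library. Under median-ratio size factors Mcm2 (0.62) and Rfc2 (0.30) were no longer called, while Gins2, Orc1, Pcna, Tk1 and Rpa3 kept their direction and their calls and Pola1 was called with both kits (-0.58 and -0.60).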

How the data were processed

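RNA of 4 kinds of sample was sequenced in 66 libraries. The submitters' processing notes name STAR, SAMtools, featureCounts and the build mm10; no version is named there, and annotation and strand setting were not given in the sources used here. Raw counts per gene make up the tables the authors deposited for each kit, and the log2 tables they deposited were made from the same counts and were not used in tests. Of 39179 identifiers, 37693 matched GENCODE M21, which gave symbols, coordinates and exon lengths. The other 1486 stayed in the tests. Exon length is that of all annotated exons of a gene merged. Levels per kb, and the order of genes by them, depend on it.

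For each comparison, genes were filtered with filterByExpr, scaled by TMM and tested with edgeR 4.0.16 (R 4.3.3, limma 3.58.1) on the groups compared, 2 or, for interactions, 4. P-values were adjusted over all genes tested by the Benjamini-Hochberg method, with calls made under an adjusted p of 0.05. CPM are scaled within the comparison they are given for, so they differ slightly between comparisons. The SE was taken as the absolute log2 fold change divided by the root of F. Group values are mean ± SD over 3 libraries. Intervals at 95% and the floor of 3 counts reflect counting error alone, as PCR copies of 1 molecule can be counted more than once. The fits were also run on simulated counts with the same fixed dispersion for all genes. These did not copy the wide spread of the low-input urothelium libraries, so they do not show how the tests behave there.

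Alternatives were DESeq2 1.42.0, median-ratio size factors, no low-count filter, a replicate block, and each library left out in turn. Leaving out the SMARTer FFPE libraries numbered 3 was added after seeing the data. The replicate numbers come from the labels, which do not say what they share. Same-numbered libraries deviated together (all 3 correlations over 0.1) in 3 comparisons: BC57 against urothelium with SMARTer at 2 ng in FF RNA (0.118, 0.143 and 0.187) and in FFPE RNA (0.225, 0.225 and 0.310), and FFPE against FF in BC57 with SMARTer at 2 ng (0.253, 0.203 and 0.303).

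The 43 genes, the 45 other replication genes, the E2f genes and the marker lists were chosen with earlier results of these data known, and nothing here is independent support for what those results showed. By the rule for names, the text gives in each role the largest and smallest log2 fold change, genes against the common direction and genes not called, the 4 largest of the other replication genes, and up to 5 interactions a test. Other genes named, and those shown by library at low input, were chosen after their values were seen.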

Additional observations from a re-analysis of the deposited data

Results flagged for a closer look

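The following 9 results differed between BC57 and urothelium by an interaction test in edgeR with Benjamini-Hochberg adjustment over all genes. Each is the effect in BC57 minus that in urothelium on the log2 scale. They were 2 of 43 genes for fixation with Ovation, 4 for Ovation against poly(A) and 3 for SMARTer against poly(A). Of all genes, 5.9%, 8.32% and 8.44% passed these tests. Mcm4, Mcm2 and Rfc2 were lost in DESeq2, and Mcm2 and Rfc2 also with median-ratio size factors. Fixation with Ovation at 2 ng gave 0.60 for Mcm4, a helicase subunit, and -0.46 for Orc4, an origin recognition subunit. In FFPE and FF libraries, Mcm4 averaged 241 and 309 CPM in BC57, and 16.7 and 32.7 CPM in urothelium, so it fell in both. Orc4 averaged 127 CPM in FFPE and 92.7 CPM in FF urothelium.

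Ovation against poly(A) gave -1.82 for Orc1, -1.03 for Gins2, 0.75 for Mcm2 and 0.51 for Pcna. Gins2 averaged 25.9 CPM with Ovation and 39.995 CPM with poly(A) in BC57, and 67.1 and 47.3 CPM in urothelium. It shares 67.3% of its exonic bases with Gse1 on the other strand. Orc1 averaged 3.09 CPM with Ovation and 0.746 CPM with poly(A) in urothelium, on few counts, and 21.4 and 18.4 CPM in BC57. Mcm2 averaged 8.56 CPM with Ovation and 16.9 CPM with poly(A) in urothelium, and Pcna averaged 382 and 328 CPM in BC57.

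SMARTer against poly(A) gave 1.02 for Rpa3, -0.85 for Tk1 and 0.44 for Rfc2. Tk1 averaged 83.2 CPM with SMARTer and 116.6 CPM with poly(A) in BC57, and 11.6 and 8.41 CPM in urothelium, with no overlap in either sample. Rpa3 averaged 4.21 CPM with SMARTer and 9.66 CPM with poly(A) in urothelium.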

How the results depend on the processing

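No called log2 fold change of a replication gene reversed in 5357 refits over all comparisons and alternatives. Among the refits of the genes named here, 1576 kept direction and side of the threshold, 68 lost the call and 5 gained it. Of the counts of genes called, 259 stayed within 1.5 times of the reported value and 40 did not. Those outside it were as follows. For BC57 against urothelium with SMARTer FFPE, the count of 27 at 2 ng became 41 without the libraries numbered 3 and ranged between 15 and 38 with single libraries left out, and the count of 8 at 250 pg became 14 with no low-count filter, 20 without the libraries numbered 3 and 1 to 21 with single libraries left out. For FFPE against FF with SMARTer, the count of 11 in BC57 ranged between 2 and 12 with single libraries left out, and the count of 0 in urothelium became 6 with DESeq2, 9 without the library numbered 3 and 0 to 9 with single libraries left out. Interaction counts are small: for fixation with Ovation, 2 became 1 with DESeq2, which lost Mcm4, and 1 with no filter, which lost Orc4 (1 to 4 with single libraries left out); for fixation with SMARTer, 0 became 2 with no filter and 1 without the libraries numbered 3; for Ovation against poly(A), 4 became 9 with no filter (4 to 8); for SMARTer against poly(A), 3 became 5 with DESeq2 and 8 with no filter (2 to 8). The cause was not tested.

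With the replicate block, the 3 comparisons in which the libraries pair gave 41 (41 without the block), 27 (27 without it, with Gins1 lost and Gins4 gained) and 14 (11 without it, with Mcm10, Cdt1 and Rfc3 gained). In the other comparisons the libraries share only a number, and the block kept each count within 1.5 times. At 50 pg and 250 pg, genes near 5 CPM in urothelium rest on few counts per library, which limits the precision of their fold changes.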
